A study of Homo sapiens with 4 samples.

Results

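The mitochondrial genome encodes 6 mRNAs for respiratory complexes III, IV and V, and the crosslinking of the PR100 dipeptide to them is described here. They were taken by name from the plus strand of the mitochondrial chromosome: MT-CYB of complex III, MT-CO1, MT-CO2 and MT-CO3 of complex IV, and MT-ATP6 and MT-ATP8 of complex V, 6 of the 62700 genes of the annotation. PR100 is a chain of proline-arginine repeats, one of the dipeptides made from the expanded repeat of C9orf72, and carried a triple FLAG tag. HEK293T cells, a transformed line from human embryonic kidney, were transiently transfected with it in all 4 libraries. Expression was induced with 150 ng/ml doxycycline for 24 h, and the cells were irradiated once with 160 mJ/cm2 of UV light at 254 nm. Transient transfection gives a mixed population of cells, and PR100 was expressed in excess from a plasmid. In iiCLIP, the protein that stays on the RNA stops reverse transcription, so the nucleotide before the cDNA marks the contact. A crosslinking event is 1 unique cDNA at such a position. Replicate 4 was purified by immunoprecipitation with beads and the other 3 replicates by SDS-PAGE, and the random barcode that separates PCR copies had 5 nt in replicate 3 and 7 nt in the others. Control libraries were not analysed here, so no value below is corrected for background binding.

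Mitochondrial mRNAs are cut out of long polycistronic transcripts and translated inside the organelle. The proteins of these 6 form the core of the last steps of respiration. Complex III passes electrons to cytochrome c, complex IV passes them to oxygen, and complex V makes ATP. The other subunits of these complexes are encoded in the nucleus and imported.

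The 4 libraries held 334057, 604816, 125694 and 179636 events in replicates 1 to 4, and the totals of replicates 3 and 4 are below the minimum depth per sample that the methods of the study name. Of these, 95, 404, 36 and 218 lay on the 6 mRNAs, or 753 in all on 422 of their 4992 nt. They made up 0.0613% ± 0.0439 (SD, n = 4) of a library. Replicate 2, the deepest library, gave the most events, and the share was highest in replicate 4, at 0.121%. Of the 422 positions, 57 held events in 2 or more libraries and 0 in all 4. Of the genes that mark this cell line, NEFM, NEFL and VIM held 1409, 161 and 100 events in their exons, and KRT8 and KRT18 held 2 and 1. ALB, HBB and INS of other cell types held 0 and PTPRC held 1. Replicate 3 stood apart, as its 36 events lay on 9 positions and 13 of them on a single one.

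MT-ATP8 and MT-ATP6, which encode the small and the large mitochondrial subunit of the membrane part of ATP synthase, had the highest densities of the 6. Densities are in CPM per kb, that is, the count of events scaled by the total of the library (CPM, as in the study) and divided by the gene length, so that libraries and genes can be set side by side. MT-ATP8 (ENSG00000228253.1, chrM:8366-8572, 207 nt, GRCh38) held 10, 31, 13 and 19 events in replicates 1 to 4. Its density was 145, 248, 500 and 511, with a mean of 351 ± 183 (SD, n = 4). It was above 100 in each library, although the short gene held the fewest events of the 6.

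MT-ATP6 (ENSG00000198899.2, chrM:8527-9207, 681 nt) held 21, 130, 25 and 44 events, or 220 in all, the most of the 6. Its density was 92.3, 316, 292 and 360, with a mean of 265 ± 118 (SD, n = 4). Replicates 2, 3 and 4 lay close together and replicate 1 lay below them, but 13 of the 25 events of replicate 3 lay at a single position. Both genes are read from a shared mRNA and overlap over 46 nt, from chrM:8527 to chrM:8572. The overlap held 2, 0, 13 and 1 events, which count for both. In replicate 3 all 13 lay at chrM:8541.

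The complex IV mRNAs encode the catalytic core of cytochrome c oxidase. MT-CO1 (ENSG00000198804.2, chrM:5904-7445, 1542 nt), whose protein carries the site that reduces oxygen, held 33, 73, 2 and 55 events and a density of 64.1, 78.3, 10.3 and 199 (mean 87.8 ± 79.4, SD, n = 4). MT-CO2 (ENSG00000198712.1, chrM:7586-8269, 684 nt), whose protein takes the electrons from cytochrome c, held 7, 61, 3 and 37 events and a density of 30.6, 147, 34.9 and 301 (mean 129 ± 127, SD, n = 4). MT-CO3 (ENSG00000198938.2, chrM:9207-9990, 784 nt), another core subunit, held 11, 48, 1 and 28 events and a density of 42.0, 101, 10.1 and 199 (mean 88.0 ± 82.9, SD, n = 4). In each of the 3 the SD was close to the mean, replicate 4 was highest, and replicate 3 rested on 1 to 3 events. MT-CYB (ENSG00000198727.2, chrM:14747-15887, 1141 nt), which encodes cytochrome b of complex III, held 15, 61, 5 and 36 events. Its density was 39.4, 88.4, 34.9 and 176, with a mean of 84.6 ± 65.4 (SD, n = 4), the lowest of the 6. The level of an mRNA was not measured, so more RNA and more binding per RNA cannot be told apart, nor can more cells with PR100 and more RNA per cell.

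**Figure D1:**
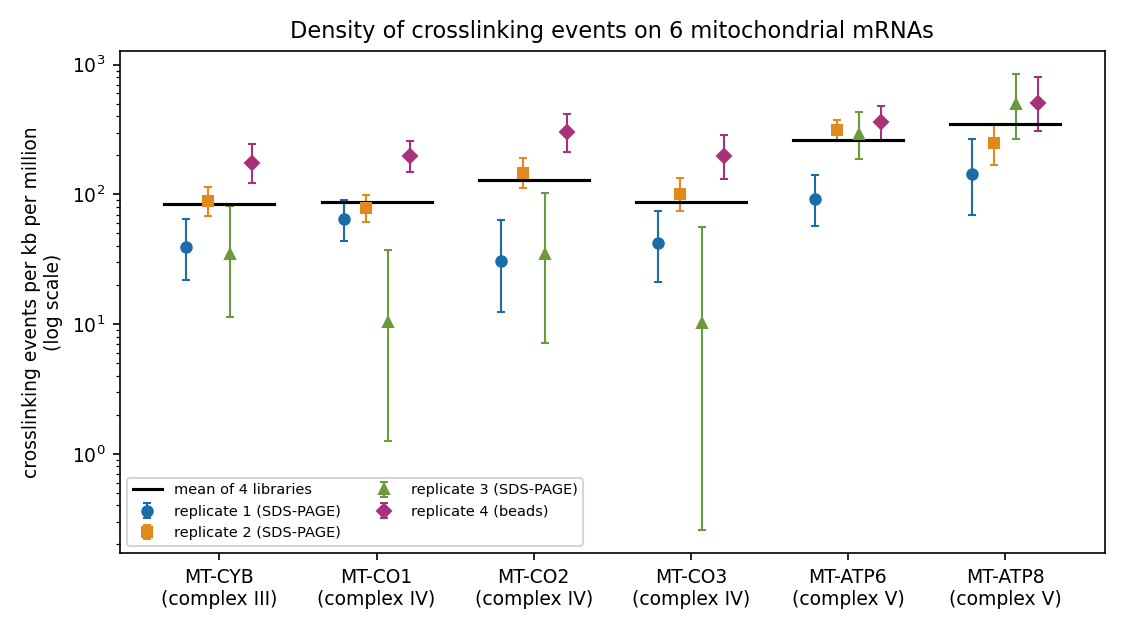
Density of crosslinking events (CPM per kb of gene, log axis) on the 6 mRNAs. Points are the 4 libraries with exact 95% Poisson intervals, which cover counting error only, and black lines are the means. MT-ATP6 and MT-ATP8 have means of 265 and 351, the other 4 mRNAs have means of 84.6 to 129, and replicate 4 is the highest point of each gene.

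The 15 pairs of genes were compared within libraries, after adding 0.5 events to each count. In 8 pairs the same gene was higher in all 4 libraries, and these 8 were MT-ATP8 and MT-ATP6 over each of MT-CYB, MT-CO1, MT-CO2 and MT-CO3. In density, MT-ATP8 exceeded MT-CO1 by 2.40 ± 1.96 and MT-CYB by 2.18 ± 1.07 on the log2 scale (SD, n = 4). MT-ATP6 exceeded MT-CO2 by 1.44 ± 1.09 and MT-CYB by 1.76 ± 0.87 (SD, n = 4). Replicate 3 gave the largest difference in each of these 4 pairs, for example 5.33 for MT-ATP8 over MT-CO1 against 1.22, 1.67 and 1.39 in replicates 1, 2 and 4, where 13 events at a single position stand against 2 events. Without replicate 3, MT-ATP8 exceeded MT-CO1 by 1.43 ± 0.23 and MT-CYB by 1.65 ± 0.22, and MT-ATP6 exceeded MT-CO2 by 0.96 ± 0.65 and MT-CYB by 1.36 ± 0.42 (SD, n = 3). When the signs of the 4 differences were flipped in every combination, a two-sided exact permutation test gave p = 0.125 for each of the 8. This is as low as 4 libraries can go, and it became 0.234 after Benjamini-Hochberg adjustment over the 15 pairs (exact permutation p). No pair can therefore pass 0.05, and the direction in each library is what the data give. The other 7 pairs changed direction between libraries. Among these, MT-ATP8 was above MT-ATP6 in 3 of 4 libraries (0.42 ± 0.51, SD, n = 4). MT-CYB, MT-CO1, MT-CO2 and MT-CO3 thus had no order among them that all libraries shared. With the shared 46 nt left out of both genes, MT-ATP6 stayed above the 4 other mRNAs in each library, and MT-ATP8 was no longer above MT-CO2 and MT-CYB in each. MT-ATP8 then held 0 events in replicate 3, so that its place above MT-CO1 and MT-CO3 in that library rests on the added 0.5.

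All 6 mRNAs had their highest density in replicate 4, the library purified with beads. The same held for 6 of 6 mitochondrial mRNAs of complex I on this strand. Of 2398 nuclear protein-coding genes with at least 100 events, 35.1% were highest in that library. Densities are scaled by the whole library. The mitochondrial chromosome as a whole held 1.82%, 5.94%, 1.30% and 6.52% of the events of replicates 1 to 4, so its share too was highest in replicate 4. Without replicate 4, the mean density was 54.2 for MT-CYB, 50.9 for MT-CO1, 71.0 for MT-CO2 and 51.1 for MT-CO3, and 233 for MT-ATP6 and 297 for MT-ATP8. Purification with beads was used in 1 library, so it cannot be told apart from that library. The shares of the 4 libraries in the summed density of the 6 mRNAs were 11.6%, 27.2%, 11.7% and 49.5%. UBE4B, EIF4G1, PLXNB2, SF3B2 and NEFL were the nuclear genes with the nearest shares by the sum of absolute differences over 4 libraries, with distances of 0.0423 to 0.0774 against a median of 0.557 over the 2398 genes.

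At least 200 pooled events were found on MT-ATP6 alone of the 6, and on 1.22% of all annotated genes. This is the event minimum of the study, which also required low binding of a gene in control libraries. That part of its rule was not applied here. MT-ATP6 fell below 200 when any 1 of the 4 libraries was left out. At least 100 were found on 4 of the 6, that is on all but MT-CO3 and MT-ATP8, and on 4.13% of all genes. Each of the 6 held at least 1 significant cluster of the pooled libraries, as did 4.53% of all genes. The median density over the exons of 20033 nuclear protein-coding genes was 0.826, and the lowest of the 6, MT-CYB, was above 99.9% of them.

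The events were not spread evenly along the genes. The authors called significant clusters of crosslinked positions at a false discovery rate of 0.05. In the pooled libraries, 12 clusters of 5 to 88 nt lay on the 6 mRNAs and held 338 of the 753 events (44.9%). MT-CO1 and MT-CO3 held 3 each, MT-CO2 and MT-ATP6 held 2 each, and MT-CYB and MT-ATP8 held 1 each. Of the 12, 9 held events in each of replicates 1, 2 and 4, and 2 held events in all 4 libraries. With the clusters of each library alone, 2, 9, 1 and 3 were found, with 35.2% ± 12.8 (SD, n = 4) of the events. The sequences below are shown because they are the clusters with the most events on each mRNA, with the leading 2 for MT-ATP6 and MT-CO1. They are the plus strand of GRCh38 with 10 nt on either side of the cluster, T stands for U, and capitals mark positions with at least 1 event in the pooled libraries.
MT-ATP6, chrM:8602-8665: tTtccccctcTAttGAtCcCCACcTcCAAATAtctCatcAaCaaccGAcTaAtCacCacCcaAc
MT-ATP6, chrM:9026-9084: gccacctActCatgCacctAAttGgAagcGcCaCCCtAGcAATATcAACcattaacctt
MT-ATP8, chrM:8389-8416: AtggcccaccAtAAtTACccccAtactc
MT-CO1, chrM:6343-6450: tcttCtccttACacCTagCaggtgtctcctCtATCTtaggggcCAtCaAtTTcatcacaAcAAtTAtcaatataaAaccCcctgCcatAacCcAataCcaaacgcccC
MT-CO1, chrM:7210-7251: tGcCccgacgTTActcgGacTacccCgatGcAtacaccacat
MT-CO2, chrM:7761-7815: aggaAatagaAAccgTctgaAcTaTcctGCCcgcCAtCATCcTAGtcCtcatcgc
MT-CO3, chrM:9820-9866: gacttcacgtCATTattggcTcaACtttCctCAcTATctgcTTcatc
MT-CYB, chrM:15556-15580: cgaatgAtatTTcCTattcgcctac

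All of these stretches lie inside the coding sequence. In MT-ATP6, the cluster from chrM:8612 to chrM:8655 held 12, 40, 3 and 11 events and that from chrM:9036 to chrM:9074 held 3, 51, 0 and 11. These 2 are the clusters with the most events on the 6 mRNAs, 66 and 65, and in both replicate 2 gave the most. In MT-CO1, the cluster from chrM:6353 to chrM:6440 held 15, 26, 0 and 14 events, and that from chrM:7220 to chrM:7241 held 9, 7, 0 and 7. Replicates 1, 2 and 4 all contributed to both. In MT-CO2, the cluster from chrM:7771 to chrM:7805 held 1, 21, 3 and 8 events and is the other of the 2 with events in every library. In MT-CO3, the cluster from chrM:9830 to chrM:9856 held 3, 12, 0 and 6 events, whereas the 10 events of the cluster from chrM:9318 to chrM:9326 all came from replicate 2. The clusters of MT-ATP8 and MT-CYB held 17 and 10 events, of which replicate 2 gave 14 and 8.

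**Figure D2:**
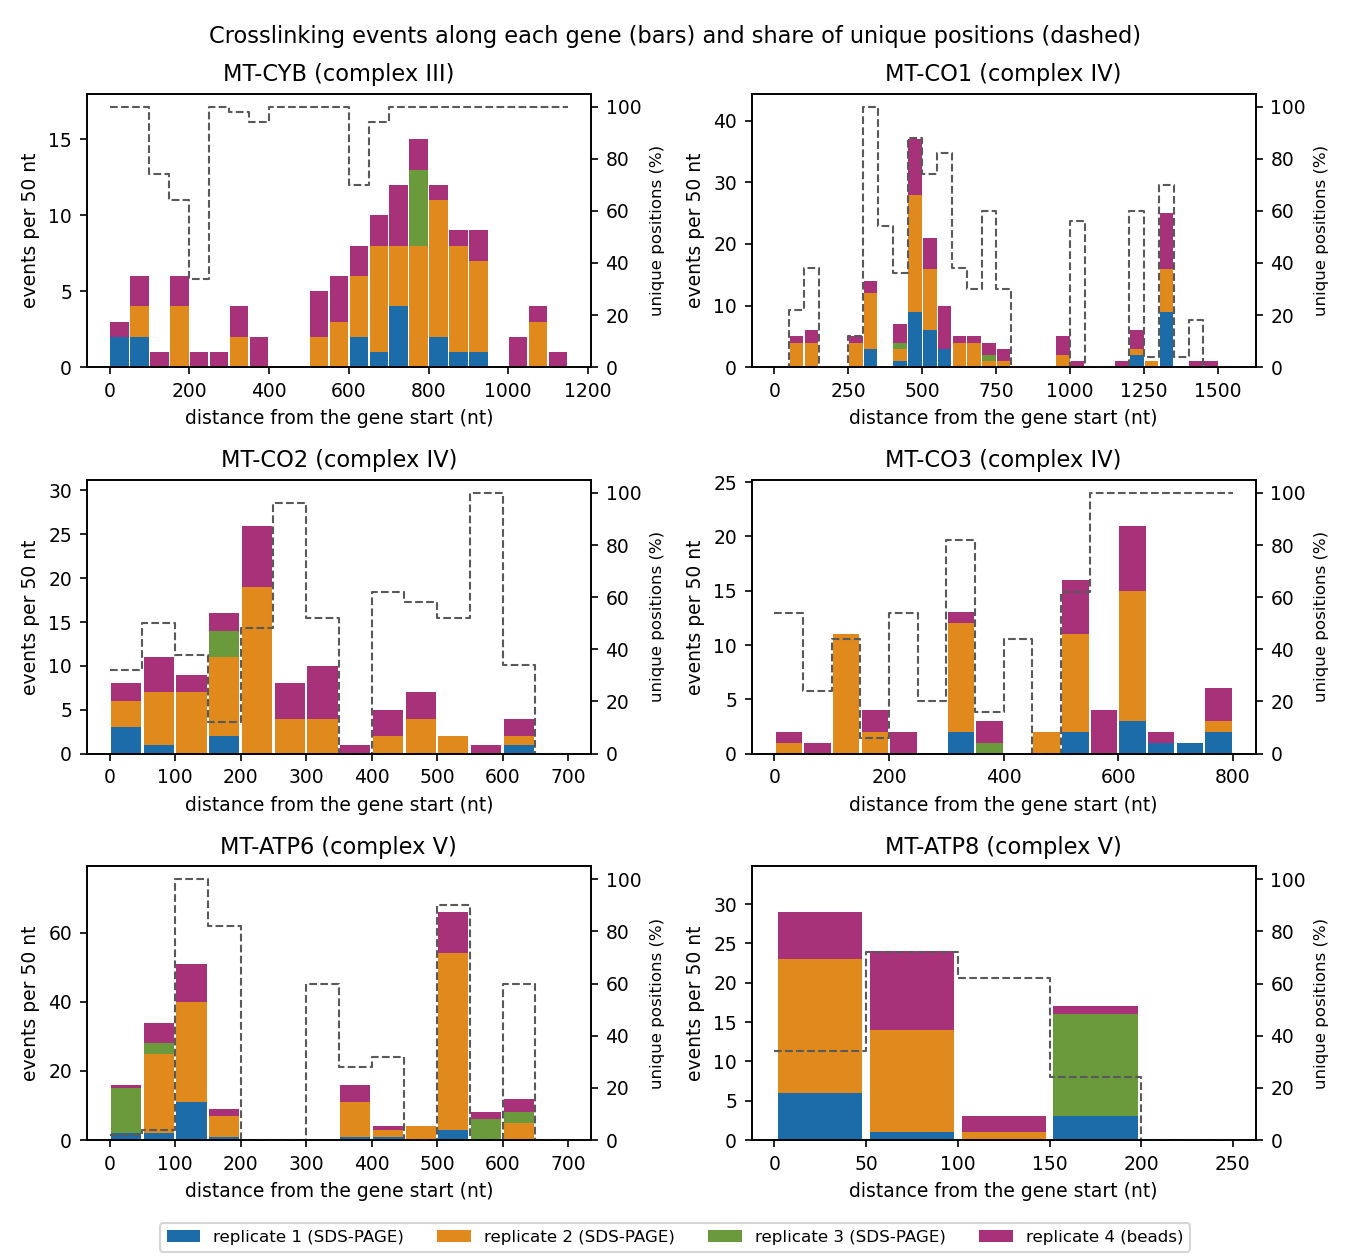
Events per 50 nt along each gene, from its start, stacked by library (bars, left axis), and the share of positions in each bin whose next 30 nt occur once in the genome (dashed line, right axis). MT-ATP6 has 2 peaks, at 100 to 150 nt and 500 to 550 nt, and no event in parts 4 and 5 of 10, MT-CO1 has 38.0% of its events in part 4 of 10, and 14 of the 21 bins with the dashed line at 0 have no bar.

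Each gene had its own profile when it was divided into 10 equal parts from its start to its end. In MT-ATP6, 33.6% of the pooled events lay in part 2 and 28.6% in part 8, with 0 in parts 4 and 5. In MT-CO1, 38.0% lay in part 4 and 17.2% in part 9. Part 4 held 48.5%, 39.7% and 30.9% in replicates 1, 2 and 4, so it led in these 3 libraries. MT-CO2 held 81.5% of its events in parts 1 to 5, with 85.7%, 85.2% and 73.0% in these libraries. MT-CYB was crosslinked mostly in its later parts, with 26.5% in part 7 and 23.1% in part 8, although in replicate 4 its events were spread over the gene, with 2.78% to 19.4% in each part. In MT-CO3, parts 7 and 9 led with 20.5% and 19.3%. In MT-ATP8, part 2 led with 31.5%, and all 13 events of replicate 3 lay in part 9. Over 103 bins of 50 nt, Spearman's correlation was 0.507 between replicates 1 and 2, 0.517 between 1 and 4 and 0.638 between 2 and 4. With replicate 3 it was 0.037 to 0.162. These are correlations across bins of the same genes, which are not independent and share the same stretches that reads can or cannot be placed in.

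The authors kept reads that mapped to a single place, and the nuclear genome holds copies of the mitochondrial mRNAs. Of the positions of the 6 genes, 51.5% are followed by 30 nt that occur once in the genome, 36.6% with 20 nt and 67.4% with 50 nt. At 30 nt the share was 92.5% in MT-CYB, 55.7% in MT-CO3, 46.4% in MT-ATP8, 46.3% in MT-CO2, 33.6% in MT-ATP6 and 28.4% in MT-CO1. A block on chromosome 1 holds copies of 5 of the 6. MT-ATP6 and MTATP6P1 (chr1:633696-634376) are 98.5% identical, and MT-CO1 and MTCO1P12 (chr1:631074-632616) 98.6%. MTCO2P12, MTATP8P1 and the 547 nt of MTCO3P12 are 97.9%, 97.6% and 98.2% identical to their genes. These copies held 13 events (MTATP6P1), 3 (MTCO1P12), 4 (MTCO2P12), 4 (MTATP8P1) and 0 (MTCO3P12), and all 187 annotated nuclear copies of the 6 genes held 53. Whether an event on such a copy came from nuclear or mitochondrial RNA cannot be told apart here.

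The events followed these stretches. Positions unique at 30 nt held 558 events, or 217 per kb, and the other positions 195 events, or 80.5 per kb. Of the 21 bins with no unique position, 14 held no event and together they held 22. Of the 24 bins with unique positions throughout, 3 held none and together they held 185. By library, the density was 95.5, 192, 37.1 and 357 at unique positions and 16.1, 71.7, 78.9 and 122 at the others. It was higher at unique positions in replicates 1, 2 and 4 and lower in replicate 3. Gaps in the profiles therefore cannot be read as stretches that PR100 did not contact. Over unique positions alone, the mean density was 85.2 in MT-CYB, 214 in MT-CO1, 220 in MT-CO2, 127 in MT-CO3, 444 in MT-ATP6 and 293 in MT-ATP8. In proportion MT-CO1 rose most in this count, from 87.8 over the whole gene to 214 ± 188 (SD, n = 4). In CPM per kb MT-ATP6 rose most, from 265 to 444, and it came above MT-ATP8. MT-ATP6 was still above MT-CYB, MT-CO1, MT-CO2 and MT-CO3 in every library, by little in replicate 1, at 222 against 212 for MT-CO1. In replicate 3 it was 104 against 75.3 for MT-CO2. There 3 events at chrM:9148 stand against 3 at chrM:7785, so the unique lengths of 229 and 317 nt set the order. MT-ATP8 held 0 events at unique positions in replicate 3, where MT-CYB had 37.7, MT-CO2 75.3 and MT-CO3 18.2 CPM per kb. MT-CO1 also held 0 there. MT-ATP8 was therefore above none of the complex III and IV mRNAs in that library. With 0.5 events added to each count, it came above MT-CO1 and MT-CO3 there, but not above MT-CYB and MT-CO2.

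Single positions held few events. The position with the most in MT-CO1 was chrM:6377, with 1, 5, 0 and 1 events in replicates 1 to 4. In MT-CYB it was chrM:15517 with 0, 3, 5 and 0, in MT-CO3 chrM:9516 with 0, 5, 0 and 0, and in MT-CO2 chrM:7697 with 0, 4, 0 and 0. Only that of MT-CO1 was found in 3 libraries. The position with the most events of all was chrM:8541 in the overlap of MT-ATP8 and MT-ATP6, whose 13 events came from replicate 3 alone. Windows of 36 nt around it and around that of MT-CO1 are shown, the former because it held the most events and the latter because it recurred between libraries, with the crosslinked base in capitals.
MT-ATP8 and MT-ATP6, chrM:8536-8571: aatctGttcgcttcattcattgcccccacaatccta
MT-CO1, chrM:6372-6407: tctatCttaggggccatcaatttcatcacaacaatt

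The 10 positions with the most events held 10.1% of all events on the 6 mRNAs. Within a library they held 32.6%, 13.1% and 10.1% in replicates 1, 2 and 4, and all 36 events of replicate 3 lay on fewer than 10 positions.

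The crosslinked base was a U in 26.3%, 32.7%, 38.9% and 33.9% of the events in replicates 1 to 4, against 25.7% of the nucleotides of the genes. The difference was 7.23 ± 5.18 percentage points (SD, n = 4) and positive in each of the 4 libraries (p = 0.125 by exact sign flips, a permutation test that can go no lower). Replicate 1 lay within 1 point of the genes. Wilson 95% intervals of the share, which cover counting error only, began at 18.5%, 28.3%, 24.8% and 28.0% in replicates 1 to 4. Those of replicates 1 and 3 included the 25.7% of the genes. Without replicate 3 the difference was 5.26 ± 4.09 points (SD, n = 3). In the pooled events, 31.3% lay on C, 28.4% on A and 7.70% on G, and the genes consist of 32.1% C, 28.5% A and 13.7% G. By gene, U was more frequent at events of MT-CO3 (38.6%), MT-CYB (38.5%), MT-CO2 (38.0%) and MT-CO1 (31.3%) than among their nucleotides (26.7%, 25.2%, 25.1% and 26.6%). In MT-ATP6 the shares were 25.5% and 25.6%, and in MT-ATP8 A was the most frequent base at events, at 39.7%, as it is in the gene, at 38.6%.

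Purine-rich pentamers of the form GANGA, with A, G or C as the middle base, were searched on the strand of the mRNA. The 6 mRNAs held 9 of them, with 4 in MT-CO1, 2 in MT-CYB, 2 in MT-CO2, 1 in MT-ATP6 and 0 in MT-CO3 and MT-ATP8. The window around an event ran from 5 nt before it to 30 nt after it. A motif began in this window for 3.16%, 3.47%, 0% and 4.13% of the events in replicates 1 to 4, and for 5.83% of all positions of the genes. The difference was -3.14 ± 1.84 points (SD, n = 4), negative in each of the 4 libraries (p = 0.125 by exact sign flips, a permutation test that can go no lower). Wilson 95% intervals, which cover counting error only, reached up to 8.88%, 5.73%, 9.64% and 7.66% in replicates 1 to 4. Those of replicates 1, 3 and 4 included the 5.83% of the positions, so these libraries alone do not separate the 2 shares. That of replicate 2 ended just below it. Replicate 3 held 0 of 36 events near a motif. MT-CO2 went the other way, with 13.9% of its events and 10.5% of its positions near a motif.

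Of the events inside the 6 genes on either strand, 83.3%, 83.5%, 85.7% and 84.5% lay on the strand of the mRNA in replicates 1 to 4 (84.3% ± 1.103, SD, n = 4). The 4 libraries were close to each other in this share, and the genes were not. By gene it was 94.0% in MT-ATP6, 90.8% in MT-CO2, 88.0% in MT-ATP8, 85.8% in MT-CO1, 85.4% in MT-CO3 and 62.6% in MT-CYB. Opposite MT-CYB lay 70 of the 145 antisense events. For the complex I mRNAs the share was 54.1%, 61.2%, 56.1% and 67.0%, below that of the 6 mRNAs in each library, a difference that was not tested. It varied between these genes too, from 34.5% in MT-ND3 and 41.0% in MT-ND5, which held 422 of the 663 antisense events, to 84.9% in MT-ND1 and 92.6% in MT-ND2.

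Within codons, positions 1, 2 and 3 held 37.3%, 27.1% and 35.5% of the pooled events outside the overlaps. In replicates 1, 2 and 4 position 2 held the lowest share, at 25.8%, 24.0% and 29.95%. In replicate 3 it held 60.9%.

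The mRNAs of complex I on the same strand, MT-ND1, MT-ND2, MT-ND3, MT-ND4, MT-ND4L and MT-ND5, were compared as the most similar group. The 6 mRNAs of complexes III to V together had a density of 57.0, 134, 57.4 and 243 in replicates 1 to 4, and the complex I mRNAs 50.9, 184, 43.7 and 279. The log2 ratio was 0.16, -0.46, 0.39 and -0.20, with a mean of -0.026 ± 0.378 (SD, n = 4, p = 0.875 by exact sign flips). It was above 0 in 2 of 4 libraries, so neither group was higher throughout.

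The nuclear-encoded subunits of the same complexes, 37 genes, had lower densities. Their exons together had 3.37, 3.75, 2.80 and 6.12 CPM per kb in replicates 1 to 4. The mitochondrial mRNAs lay above them by 4.08, 5.16, 4.36 and 5.31 on the log2 scale (4.73 ± 0.60, SD, n = 4, p = 0.125 by exact sign flips, the lowest that 4 libraries can give). Counted over the whole gene with introns, 0 of the 37 held at least 200 events and 1 held at least 100. That gene, ATP5F1B, held 131, of which 79 lay in exons. A significant cluster lay on 7 of the 37. Over all annotated genes the shares were 1.22%, 4.13% and 4.53%. ATP5ME, a small subunit of ATP synthase, had the highest mean density, 28.4 ± 20.2 (SD, n = 4), followed by UQCR10 of complex III at 27.1 ± 36.9 (SD, n = 4). ATP5F1B, the catalytic beta subunit of ATP synthase, had 22.2 ± 20.7 (SD, n = 4). UQCR10 held 15.4, 0, 81.6 and 11.4 CPM per kb in replicates 1 to 4, and its mean without replicate 3 was 8.92 ± 7.97 (SD, n = 3), below that of ATP5F1B. By the mean over libraries, none of the 37 reached MT-CYB, the lowest of the 6, whereas in replicate 3 UQCR10 lay above MT-CYB, MT-CO1, MT-CO2 and MT-CO3. Within a library, 1, 0, 4 and 0 of the 37 lay above the lowest of the 6 in replicates 1 to 4. The exons of a nuclear gene were taken over all its transcripts, which is longer than a mature mRNA and lowers its density.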

How the data were processed

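The 4 libraries of crosslinked PR100-FLAG cells formed 1 group. The authors used the random barcodes to collapse PCR copies, aligned the trimmed reads with STAR (version not given in the sources used here) to GRCh38 with Gencode 27, allowing 2 mismatches, and kept uniquely mapping reads. The deposited values are counts of unique cDNAs for each position and strand, without normalisation, and clusters of significant positions with summed counts. The distance over which positions were joined is not given.

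Events were assigned to genes of GENCODE 44 on the same strand. Densities are CPM per kb, computed over the library totals of 125694 to 604816 events. Replicates are separate libraries of 1 cell line, and nothing states whether they are separate cultures, so p-values cover only agreement between libraries. Where all 4 differences have 1 sign, the sign-flip permutation p is 0.125 whatever their spread. Uniqueness was searched as exact copies of 20, 30 or 50 nt over 194 sequences of GRCh38. Differences between paired values of a library were tested by exact two-sided sign flips over the libraries, a permutation test. It was also checked on simulated sets of 6 values, more than the 4 libraries here, so that check does not cover the test as used. The lowest sign-flip permutation p that these libraries can give is 0.125. Intervals and 95% limits cover counting error only. Named genes were the 6 mRNAs, the 3 nuclear-encoded subunits with the highest density and the 5 genes with the nearest library shares. Members and lists were chosen with earlier results of these data known. The 70 alternatives left out a library, counted positions once or changed windows and motifs, and 9 were chosen after seeing the data. A recount with bedtools 2.31.1 gave 48 of 48 identical values. Figures were drawn with matplotlib 3.10.9, and scipy 1.17.1, pandas 2.3.3 and numpy 2.4.6 were run in Python 3.11.15.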

Additional observations from a re-analysis of the deposited data

Results flagged for a closer look

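Among 22 values that were looked at in the 4 libraries, 3 had 1 library far from the others by Dixon's criterion, and all 3 were of replicate 3. Chance flags about 1 in 20 of independent values. The 22 are not independent, as the base shares and the codon shares are parts of the same events. The 3 flags therefore cannot be set against that rate. In replicate 3, 36.1% of the events on the 6 mRNAs lay on a G, against 4.13% to 8.42% in the other libraries, and 13 of its 36 events lay at chrM:8541, a G in the overlap of MT-ATP8 and MT-ATP6. Outside the overlaps, replicate 3 held 23 events. The first codon position held 13.0% of these, against 36.6% to 38.9%, and the second 60.9%, against 24.0% to 29.95%.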

How the results depend on the processing

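The direction was kept for the members against the nuclear-encoded subunits, the share of U and the share near GANGA under every alternative run. The side of the threshold could not change, as the sign-flip permutation p cannot go below 0.125, or 0.25 with 1 library left out. Against the complex I mRNAs, where the main log2 ratio is -0.026, the sign changed to 0.15 over positions unique at 30 nt, 0.28 at 50 nt and 0.13 with the median over genes, and leaving out 1 library gave -0.17 to 0.12 (sign-flip permutation p of 0.25 to 1 over all these alternatives). The pairs of mRNAs with 1 direction in every library were 6 to 12 against 8, and 6 of the 8 were kept without the overlap. The mean density was 3379 CPM per kb over the total of the mitochondrial chromosome, which is another scale. The share on the strand of the mRNA was 80.5% with each position counted once. The top 5 positions held 5.71% of the events, and the top 10 held 9.34% to 14.9% when 1 library was left out, with the highest value without replicate 2. At least 200 events were held by 0 of the 6 mRNAs when any 1 library was left out and by 0 with each position counted once, and at least 100 by 4. The share of unique positions was 36.6% with 20 nt and 67.4% with 50 nt. The small number of events limits single positions and replicate 3.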
